A study of Homo sapiens with 12 samples.

Results

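The outer 2 Mb of the human chromosomes were examined for association with the nucleolus in naive and primed H9 cells, an established line of human embryonic stem cells. The members were the called regions of both deposited lists that overlapped the first or last 2 Mb of chromosomes 1 to 22, cut at the 2 Mb limit. The short-arm ends of chromosomes 13, 14, 15, 21 and 22 were left out by definition. Neither list called a region in their outer 2 Mb, which cannot be read as absence from the nucleolus. Whether reads could be placed there was not tested. This left 39 ends (78 Mb) with 2790 regions of 91744 in all: 1718 naive regions of 61750 and 1072 primed regions of 29994. Ends are named by chromosome and arm, so that 14q is the long-arm end of chromosome 14.

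The naive cells were maintained in RSeT, the primed cells in mTeSR, and neither received any treatment. For each state 3 libraries of nucleolar DNA and 3 of whole-cell DNA were sequenced, 12 libraries in 4 groups, after crosslinked cells had been broken by ultrasound and nucleoli pelleted. Each state had 1 deposited list of regions with no score, and how its 6 libraries were combined is not given. The sample labels name each list with another prefix, so lists were matched to libraries by state. Values below therefore carry no error between cultures, and the states cannot be tested against each other. The SD values given are over chromosome ends, which share a list and are not replicates of a state. The fraction was taken from a population of cells, so the share of cells in which a region lay at the nucleolus and the strength of its association cannot be told apart.

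Nucleolus-associated domains, or NADs, are genomic segments found in the purified nucleolar fraction. Nucleoli are the sites of ribosomal RNA synthesis. The subtelomere is the sequence just inside the telomeric TTAGGG repeats. Its outermost part is a patchwork of segments duplicated between chromosomes, which carries families such as the WASH genes and pseudogenes, OR4F olfactory receptors, FAM138 non-coding RNAs and DUX4 repeats. Farther in lie ordinary and often gene-dense chromosome arms. The rDNA-bearing short arms lie at the nucleolus itself, and other telomeres can also lie near it.

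Of 150 genes and pseudogenes of the duplicated families on chromosomes 1 to 22, 86 lay in 21 of the 39 ends. The families were listed as subtelomeric ones beforehand, so this count is no check of the windows. Copies of this kind can be nearly or wholly identical, and reads from identical stretches cannot be placed at a single copy. The calls at such copies are therefore uncertain. The microRNA gene MIR6859 shows this most plainly, because its 4 copies have the same hairpin of 68 bases. The mature sequences that every copy gives are shown with the seed (bases 2 to 8) in capitals, from RefSeq on GRCh38.p14.
hsa-miR-6859-5p: gAGAGGAAcaugggcucaggaca
hsa-miR-6859-3p: uGACCCCCaugucgccucuguag
MIR6859-1, at chr1:17369-17436, lay in the primed list alone, while MIR6859-2 at chr1:187891-187958 and MIR6859-3 on 15q lay in the naive list alone. MIR6859-4 on 16p lay in neither list. Copies of 1 sequence thus took 3 of the 4 possible states of call. The hairpin itself cannot tell the copies apart. Whether reads from the sequence around it could be placed was not tested, so no difference between their places is read from these calls.

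A protein-coding pair behaves in the same way. SCGB1C1 on 11p and SCGB1C2 on 17p encode secretoglobins, small secreted proteins, and the 300 bases around their start sites differ at 1 base. The 250 bases before the start are identical in both and are printed once, with the only telomere-type hexamer (CCCTAA, the reverse strand of TTAGGG) in capitals. They lie at chr11:192828-193077 and chr17:137319-137568, plus strand.
SCGB1C1 and SCGB1C2: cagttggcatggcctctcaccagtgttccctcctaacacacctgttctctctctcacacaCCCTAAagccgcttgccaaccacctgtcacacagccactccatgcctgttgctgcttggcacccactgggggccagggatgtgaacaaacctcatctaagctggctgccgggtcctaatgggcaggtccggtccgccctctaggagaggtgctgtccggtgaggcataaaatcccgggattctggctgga
The copy on 11p lay in the primed list alone over this stretch, and the copy on 17p lay in both lists.

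Promoters outside these families show the 4 states of call with less of that uncertainty. The 250 bases before the start of 4 genes follow, on the gene's own strand, with CpG dinucleotides in capitals. FAM110C lies in the longest subtelomeric stretch called in the naive list alone and PDE6B, a phosphodiesterase subunit of rod photoreceptors, in the longest called in the primed list alone. CHAMP1, a zinc finger protein of kinetochore attachment, lay in both lists and RPL35A, a ribosomal protein, in neither. All 4 were picked after their calls were known.
FAM110C, naive list alone, chr2:46506-46755, minus strand: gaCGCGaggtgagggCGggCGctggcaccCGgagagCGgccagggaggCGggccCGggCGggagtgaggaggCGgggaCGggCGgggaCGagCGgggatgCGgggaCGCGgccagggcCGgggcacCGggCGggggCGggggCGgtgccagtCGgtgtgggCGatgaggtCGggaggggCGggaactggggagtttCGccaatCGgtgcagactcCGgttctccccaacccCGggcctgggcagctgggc
PDE6B, primed list alone, chr4:625323-625572, plus strand: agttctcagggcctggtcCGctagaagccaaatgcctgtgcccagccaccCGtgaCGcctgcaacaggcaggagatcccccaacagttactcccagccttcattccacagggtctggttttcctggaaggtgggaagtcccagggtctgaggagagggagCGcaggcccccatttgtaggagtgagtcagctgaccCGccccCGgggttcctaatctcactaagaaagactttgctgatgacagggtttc
CHAMP1, both lists, chr13:114314253-114314502, plus strand: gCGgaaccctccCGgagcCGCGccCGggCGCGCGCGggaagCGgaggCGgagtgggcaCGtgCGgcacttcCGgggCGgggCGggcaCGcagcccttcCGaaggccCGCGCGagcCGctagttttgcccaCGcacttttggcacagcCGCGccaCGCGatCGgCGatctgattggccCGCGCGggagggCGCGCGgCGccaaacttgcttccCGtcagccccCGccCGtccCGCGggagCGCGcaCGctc
RPL35A, neither list, chr3:197949940-197950189, plus strand: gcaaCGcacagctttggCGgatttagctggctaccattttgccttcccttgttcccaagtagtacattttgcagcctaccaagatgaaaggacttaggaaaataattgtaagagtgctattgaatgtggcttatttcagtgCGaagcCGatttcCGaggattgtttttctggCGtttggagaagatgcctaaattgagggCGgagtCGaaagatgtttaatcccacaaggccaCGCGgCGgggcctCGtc
CHAMP1 held 44 CpG in these 250 bases, FAM110C 30, RPL35A 12 and PDE6B 6. The distribution over all promoters of the ends is given further on.

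The first comparison was how much of the ends was called in each state. In the primed list 74.0% of the outer 2 Mb lay in regions (57.7 of 78 Mb, SD over ends 21.5 points, n = 39 ends), against 42.8% of the remaining 2679 Mb of the same chromosomes. In the naive list the ends had 40.3% (31.4 Mb, SD over ends 8.89 points, n = 39) and the remainder 39.5%. Ends thus stood 31.2 points above the remainder in the primed list and 0.776 points above it in the naive list. With every end set against its own chromosome, the mean difference was 23.4 points in the primed list and -1.65 points in the naive list, so the direction in the naive list turned with the way of averaging. It also turned when the outermost 200 kb were left out, to -0.308 points. Primed ends were higher than the rest of their chromosome in 33 of 39 cases and naive ends in 17 of 39.

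Primed calls outweighed naive calls at nearly every end. The primed share was the larger in 37 of 39 ends, beside 650 of 1320 windows of 2 Mb in the chromosome interiors. The exceptions were 3p, with 22.5% naive and 0.5% primed, and 2p, with 34.0% naive and 28.5% primed. In the primed list 21 of 39 ends and 325 of 1320 interior windows were covered over at least 80% of their length. The naive list reached 80% in none of 39 ends and in 11 of 1320 interior windows.

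**Figure D1:**
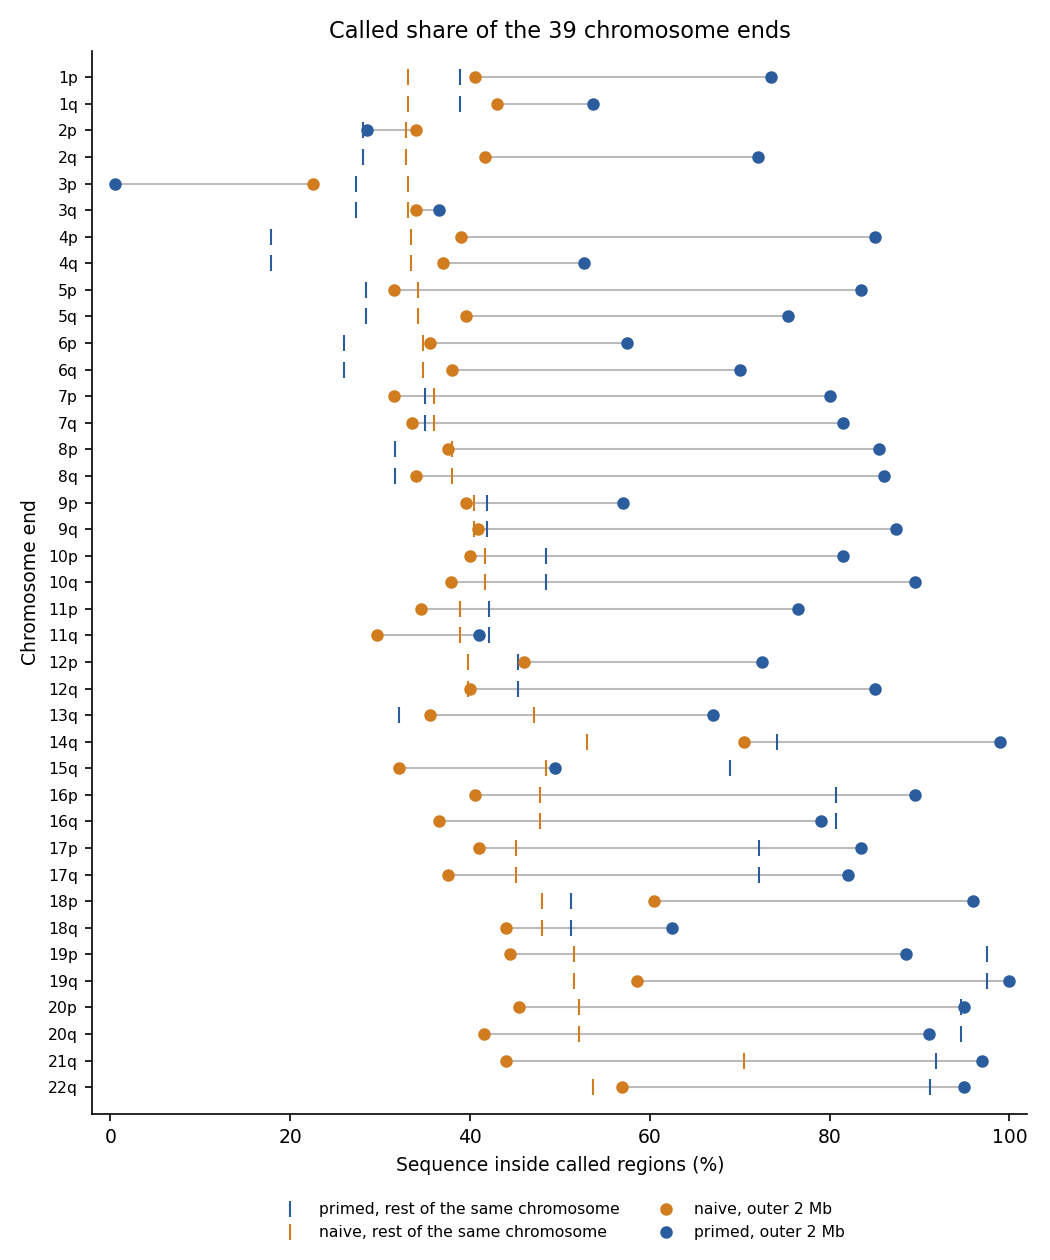
Percent of sequence inside called regions (horizontal axis) for each of the 39 chromosome ends (vertical axis). Filled circles are the outer 2 Mb in the naive (orange) and primed (blue) lists, joined by a grey line, and upright ticks are the rest of the same chromosome. Blue circles lie right of orange ones at all ends but 3p and 2p, and the orange circles stay between 22.5% and 70.5%.

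The 5 highest primed shares were 100% at 19q, 99% at 14q, 97% at 21q, 96% at 18p and 95% at 20p, level with 95% at 22q. The lowest were 0.5% at 3p, 28.5% at 2p, 36.5% at 3q, 41.0% at 11q and 49.4% at 15q. The median end had 81.5%. At least 50% was called in 34 of 39 ends.

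In the naive list the highest ends were 14q with 70.5%, 18p with 60.5%, 19q with 58.6%, 22q with 56.9% and 12p with 46.0%. The lowest were 3p with 22.5%, 11q with 29.7%, 5p and 7p with 31.5% each and 15q with 32.1%. Only the first 4 of these ends reached 50%, and the median end had 39.5%. The ends 14q, 18p, 19q and 22q were thus among the highest in both lists, and 3p, 11q and 15q among the lowest in both. Over the 39 ends the naive and primed shares had a Spearman correlation of 0.588, and over the 1320 interior windows one of 0.638. The points share the 2 lists, and neighbouring windows share regions, so these are descriptions.

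The largest excess of primed over naive share was 53.0 points at 21q, followed by 52.0 points at both 5p and 8q, 51.6 points at 10q and 49.5 points at both 20p and 20q. An excess of naive share was found at 3p (22 points) and 2p (5.5 points), and next in order stood 3q with a primed excess of 2.5 points, 1q with 10.6 and 11q with 11.3. The 3p end is gene-poor, with 2 coding genes, CHL1 and CNTN6, both neuronal cell adhesion molecules of the immunoglobulin family. CHL1 was called over 32.9% of its body and CNTN6 over 28.9% in the naive list, and both over 0% in the primed list. The longest stretch that neither list called in any end, 200 kb at chr3:1620001-1820000, lies on the same end.

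The primed difference was smaller on chromosomes 13 to 22, most of which were widely called throughout. On chromosomes 1 to 12 the mean primed share was 67.2% in the ends and 34.3% in the rest, and 22 of 24 ends were higher than their chromosome. On chromosomes 13 to 22 it was 85.0% in the ends and 76.7% in the rest, and 11 of 15 ends were higher. The pooled difference was 34.0 points for chromosomes 1 to 12 and 13.9 points for chromosomes 13 to 22. In the naive list it was 0.977 points for the former and -4.43 points for the latter. Short and long arms were alike: the mean primed share was 72.6% over 17 short-arm ends and 75.1% over 22 long-arm ends, and the mean naive share 39.1% and 41.2%.

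Opposite ends of a chromosome could differ widely in the primed list. The short-arm end exceeded the long-arm end by 35.5 points on chromosome 11, 33.5 on chromosome 18 and 32.3 on chromosome 4. It was the lower by 43.5 points on chromosome 2, with a difference of -43.5, and showed -36.0 on chromosome 3 and -30.4 on chromosome 9. In the naive list the largest such differences were 16.5 points on chromosome 18 and -14.1 points on chromosome 19.

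The second comparison was how the share changed with distance from the tip. The primed share rose from 57.2% in the outermost 100 kb to 66.9% in the next 100 kb and 73.9% between 0.2 and 0.5 Mb. It stayed at 75.7% from 0.5 to 1 Mb and 75.6% from 1 to 2 Mb, then fell to 69.8% between 2 and 3 Mb, 64.1% between 3 and 5 Mb and 53.9% between 5 and 10 Mb. The naive share ran the other way at the tip: 49.6% and 50.5% in the first and second 100 kb, 41.6% from 0.2 to 0.5 Mb, 37.4% from 0.5 to 1 Mb and 39.3% from 1 to 2 Mb. Farther in it lay between 38.4% and 39.7%.

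Within the outer 2 Mb the 2 lists were thus closest in the outermost 100 kb, 57.2% primed and 49.6% naive. The SD over the 39 ends was 27.2 and 21.4 points. At some short-arm ends both lists had their first call well inside this step, at 70 kb on 8p, 17p and 19p and at 60 kb on 11p. Such uncalled sequence counts in the length, and whether reads could be placed there was not tested. The low primed share at the tip therefore cannot be told apart from missing or multi-copy sequence. The excess at the ends did not stop at 2 Mb. Just inside that limit, from 1.8 to 2.0 Mb, the primed share was 76.4% and the naive share 38.8%. Just outside it, from 2.0 to 2.2 Mb, they were 73.6% and 38.9%. The 10 kb nearest the tip were not read on their own: for 19 chromosomes the position of the long-arm end was itself set by a called region, and in the short arms the first call lay within 10 kb of the tip in 1 naive and 2 primed ends of 17. The median first call in the short arms lay 20.0 kb from the tip in both lists. All 39 naive ends and 38 primed ends had a call within 100 kb, and the exception, primed 3p, had its first at 1500 kb.

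**Figure D2:**
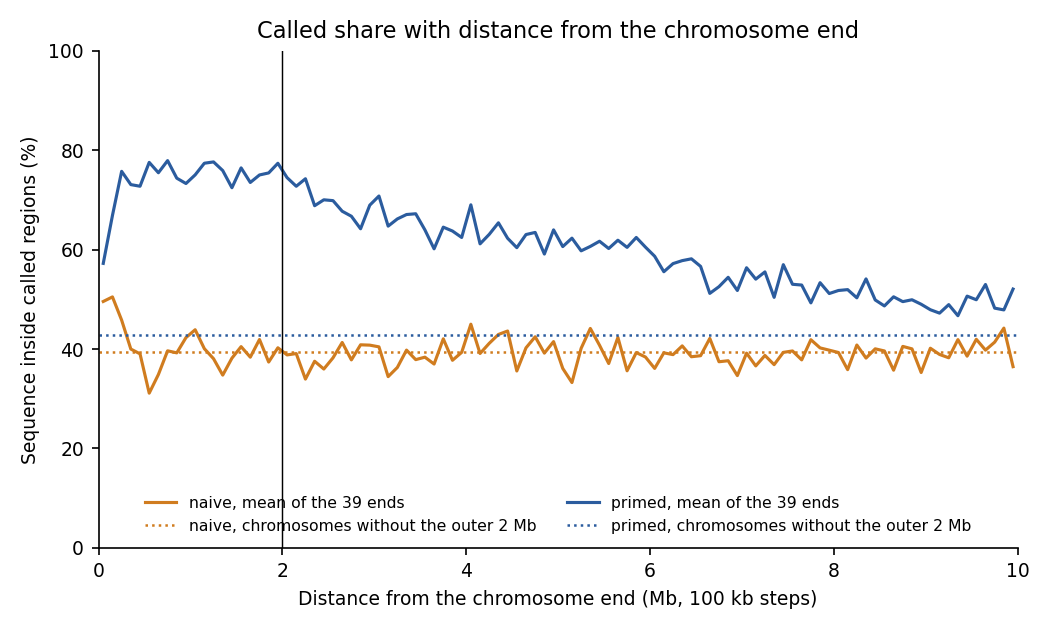
Mean percent of sequence inside called regions over the 39 ends (vertical axis) in 100 kb steps from the chromosome end (horizontal axis, Mb). Solid lines are the naive (orange) and primed (blue) lists, dotted lines the same chromosomes without the outer 2 Mb, and the upright line marks 2 Mb. The primed line climbs from 57.2% to 75.7% at 0.2 to 0.3 Mb, stays near that level to 2 Mb and then declines. The naive line is highest in the outermost 0.2 Mb, dips to 31.1% at 0.5 to 0.6 Mb and farther in moves about its dotted line at 39.5%.

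The third comparison set the ends beside interior windows that hold as many genes. Ends held 16.4 coding genes per Mb and the rest of the chromosomes 6.60, and in the primed list the called share was higher in windows with more genes, in the ends and elsewhere. Where 2 Mb held 0 to 9 coding genes, the median primed share was 55.1% over 4 ends and 13.5% over 636 interior windows. With 10 to 19 genes it was 70.0% over 11 ends and 32.5% over 418 windows. With 20 to 39 genes it was 83.5% over 12 ends and 64.0% over 185 windows. With 40 genes or more the order turned, at 85.5% over 12 ends and 88.0% over 81 windows, and 4 of the 12 ends lay above the windows' median.

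When the interior windows were weighted to the gene numbers of the ends, the primed difference fell from 31.2 to 14.9 points and the naive one was 1.03 points. The weighting was added with the data in view. Over the ends, the primed share and the number of coding genes had a Spearman correlation of 0.457 (n = 39), and over interior windows 0.376 (n = 1320). For the naive share these were 0.319 and -0.146. Gene number goes with base composition and with chromosome, which the points share.

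**Figure D3:**
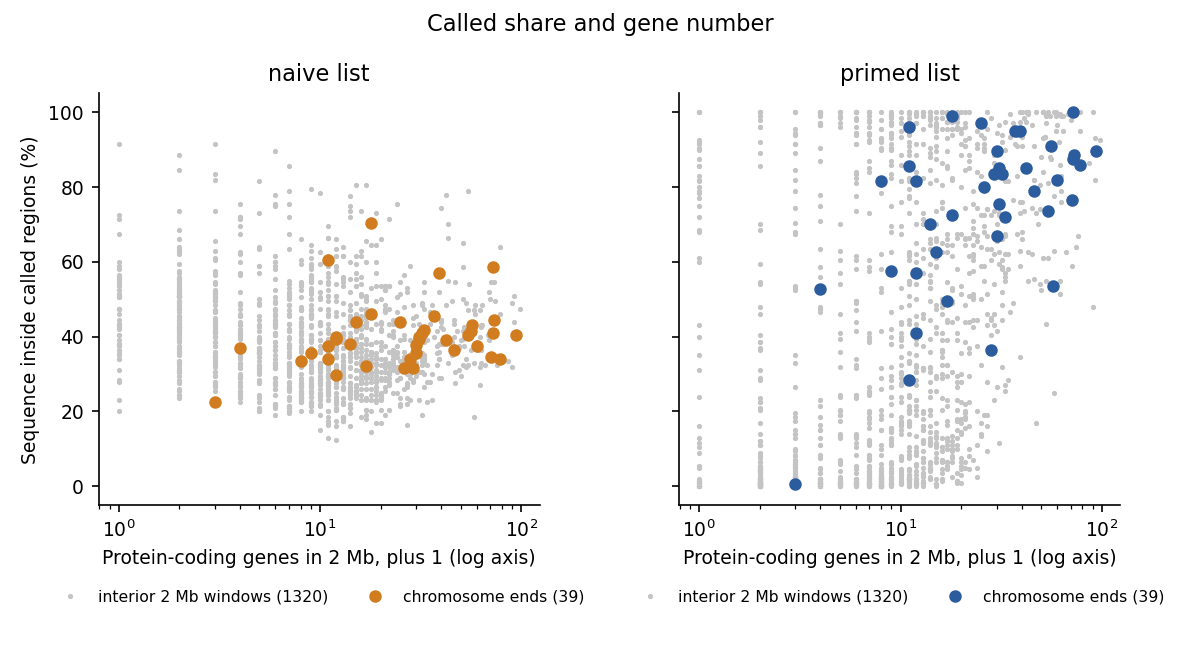
Percent of sequence inside called regions (vertical axis) against the number of protein-coding genes in 2 Mb plus 1 (horizontal axis, logarithmic), naive list on the left and primed list on the right. Coloured circles are the 39 ends and grey dots the 1320 interior windows. In the primed panel most ends with fewer than 40 genes sit high among the grey dots of like gene number, while in the naive panel ends and windows lie mostly at the same height.

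The regions themselves differed in length. Primed regions of the ends had a mean of 53.9 kb and a median of 20 kb, and 135 of 1072 reached 100 kb, together 54.3% of the called sequence. Naive regions had a mean of 18.3 kb and a median of 10 kb, and 8 of 1718 reached 100 kb. Single steps of the 10 kb grid made up 33.0% of primed regions in the ends and 52.5% elsewhere, and 56.4% and 58.4% of naive regions. At the 2 Mb limit 31 primed and 11 naive regions were cut.

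The longest primed regions were long domains rather than spots. One region covered the whole outer 2 Mb of 19q and ran on inward to a length of 9298 kb. Its part in the outer 2 Mb held 71 coding genes, which include the imprinted gene PEG3 and the zinc finger genes ZIM2, ZNF544, ZNF324B and ZNF814. A region of 1490 kb on 14q spanned most of the immunoglobulin heavy chain locus with BRF1, a subunit of the RNA polymerase III initiation factor, and MTA1, of the NuRD chromatin remodelling complex. Next were 982 kb on 22q, the outer part of a region of 3860 kb, with BRD1 as its 1 coding gene inside the limit, and 940 kb on 21q with ADARB1, an RNA-editing deaminase, and the collagen genes COL18A1 and COL6A1. The fifth, 880 kb on 18p, held TYMS, which makes thymidylate, and the kinase gene YES1.

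The longest naive regions were 2 of 210 kb each on 14q, at chr14:106040001-106250000 and chr14:106270001-106480000, both inside the immunoglobulin heavy chain locus. The longest outside 14q was 120 kb on 10p over ZMYND11, a reader of methylated histone H3.3. Regions of 100 kb followed on 11p, with IFITM1, IFITM3 and SIGIRR, and on 12p, with ERC1. Each of the 3 longest regions of 14q was called whole in the primed list as well.

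Calls shared by both states made up more of the ends than of the rest. Both lists covered 31.7% of the ends and 20.6% of the rest, the naive list alone 8.60% and 18.9%, the primed list alone 42.4% and 22.2%, and neither list 17.4% and 38.3%. Of the naive sequence in the ends 78.6% was also called primed, against 52.2% elsewhere. Of the primed sequence 42.8% was also called naive, against 48.1%. The product of the 2 shares, the overlap that their sizes alone would give, was 29.8% in the ends and 16.9% in the rest.

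By number, 1418 of 1718 naive regions (82.5%) touched a primed region, against a background of 51.3% of all naive regions. In the primed list 720 of 1072 regions (67.2%) touched a naive one, against a background of 55.7%. Touching rises with the share the other list covers. When an overlap of at least 50% of both regions was required, 268 pairs remained, 15.6% of naive and 25% of primed regions of the ends, beside 12.9% and 26.5% in the rest.

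Stretches called in 1 list alone were longer in the primed direction. The longest primed-only stretch was 140 kb on 4p (chr4:500001-640000) with PIGG, a GPI anchor enzyme, PDE6B and TMEM271. It was followed by 110 kb on 7q inside PTPRN2, 100 kb on 10p over parts of WDR37 and ADARB2, and several of 90 kb. One of these, on 5p, held EXOC3, an exocyst subunit, and a part of AHRR, the repressor of the aryl hydrocarbon receptor. Another, on 11p, held 5 KRTAP5 keratin-associated protein genes and the phosphatase gene DUSP8. The longest naive-only stretch was 70 kb at the tip of 2p (chr2:10001-80000) with FAM110C. After it came 40 kb on each of 4q, 11q (inside OPCML) and 13q (C13orf46), and 30 kb stretches that include FOXD4 and DMRT2 on 9p.

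The fourth comparison was over genes. A gene belonged to a list if at least 1 base of its body was called. Of 1282 protein-coding genes in the ends, 1240 (96.7%) lay in primed regions, against a background of 81.3% of all 18973 coding genes, and 923 (72.0%) lay in naive regions, against 76.7%. The primed list took in the whole body of 810 genes (63.2%), beside 38.8% of coding genes elsewhere. The naive list took in the whole body of 205 genes (16%), beside 11.9%. Coding genes of the ends were short, with a median of 14 kb against 26.0 kb elsewhere, and a short gene is touched less easily and covered whole more easily.

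Both lists held 902 of the 1282 genes, or 70.4% against a background of 64.6%. The primed list alone held 338 (26.4%, background 16.6%), the naive list alone 21 (1.64%, background 12%) and neither list 21 (1.64%, background 6.68%). The 21 naive-only genes had a median length of 7.64 kb and the 338 primed-only genes 7.09 kb. By distance from the tip, primed regions held 90 of 96 coding genes in the outermost 0.2 Mb and 576 of 596 between 1 and 2 Mb, and naive regions 73 and 411. Olfactory receptors made up 8 of the naive-only genes, 7 of them in the cluster of 1q, and 3 others lay on chromosome 3. The others with names were FAM110C, FOXD4 (a member of the duplicated families), DMRT2, PKP3, SPATA19 and ZNF670.

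Other gene types followed the same order. Of 981 lncRNA genes in the ends 85.6% lay in primed and 58.8% in naive regions, against 62.8% and 62.9% of those elsewhere. Of 563 pseudogenes 76.6% and 53.3% did so, against 52.9% and 46.1%. Of 126 miRNA genes 78.6% and 40.5% did so, against 58.6% and 36.5%. The primed value in the ends was the highest of the 4 for each type, and the naive-only share was lower in the ends than elsewhere for every type.

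**Figure D4:**
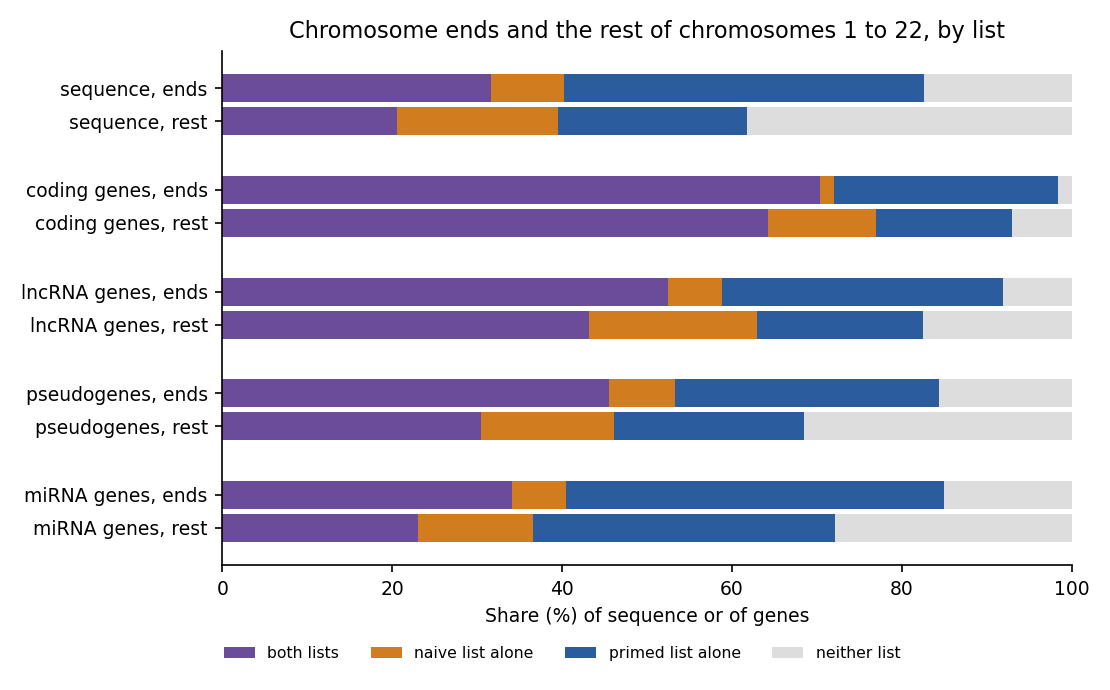
Shares (horizontal axis, percent) of sequence and of coding, lncRNA, pseudogene and miRNA genes that lay in both lists (purple), the naive list alone (orange), the primed list alone (blue) or neither (grey), in the chromosome ends and in the rest of chromosomes 1 to 22. In each pair of bars the blue part is longer and the orange part shorter in the ends, with 42.4% and 8.60% of the sequence there against 22.2% and 18.9%.

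The outermost coding gene of each end lay in both lists in 31 of 39 cases, in the primed list alone in 6 and in the naive list alone in 2. Over all coding genes of the ends these shares were 70.4%, 26.4% and 1.64%. The 2 naive-only genes were FAM110C on 2p and CHL1 on 3p. The primed-only genes included PDCD2 on 6q, FAM240C on 2q, FRG2B on 10q and TMEM121 on 14q, each covered over 100% of its body in the primed list, and a pair of genes of chromosome 8 that are not named here. At 4q the outermost coding gene was DUX4, the transcription factor that switches on genes of the 8-cell embryo, 28.6 kb from the tip. DUX4 was covered over 100% of its body in both lists.

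Most other outermost genes were covered to unequal degrees. PGBD2 on 1q had 99.7% in the naive and 34.9% in the primed list, OR4F15 on 15q 100% and 2.46%, PARD6G on 18q 77.8% and 41.6%, PCMTD2 on 20q 100% and 69.6%, LMLN on 3q 28.4% and 4.45%, and PRDM7 on 16q 48.2% and 35.3%. Together with FAM110C and CHL1 they make the 8 of 39 outermost genes that were covered more in the naive list. The primed list covered more of 27, and 4 were level. Primed coverage was the larger for IQSEC3 on 12p with 8.95% and 64.2%, CACNA1B on 9q with 25.2% and 91.9%, PRMT2 on 21q with 14.7% and 82.6% and MZF1 on 19q with 30.7% and 100%. CHAMP1 on 13q and SCGB1C2 on 17p were covered over 100% in both lists, and TUBB8 on 10p, a tubulin of the oocyte spindle, over 66.9% in both.

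The DUX4 repeats offered a closer look, and were singled out after their values had been seen. They are near-identical units, so the placing of reads among them is uncertain. On 4q, 10 annotated DUX4 copies included 5 in naive and 7 in primed regions. DUX4L7, DUX4L6 and DUX4L5 were covered over 100% in the naive list and 0% in the primed list. DUX4L8, DUX4L4, DUX4L1 and DUX4L3, on either side, were covered over 100% in the primed and 0% in the naive list. On 10q, 14 copies included 3 in naive and 5 in primed regions. Units of 1 array thus stood in opposite states of call in adjacent steps of the 10 kb grid.

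Of the 86 members of the duplicated families, 51 (59.3%) lay in primed and 49 (57.0%) in naive regions, where the backgrounds over all gene types were 67.1% and 61.6%. Both lists held 33, the naive list alone 16, the primed list alone 18 and neither list 19, or 38.4%, 18.6%, 20.9% and 22.1%. The backgrounds are 46.5%, 15.1%, 20.5% and 17.8%. The excess of primed calls seen over the ends as a whole was not found in these counts. Over all gene types of the ends 88.7% were primed and 63.2% naive. The 64 members of these families outside the ends were 67.2% primed and 62.5% naive, so near-equal shares were not particular to the copies in the ends. By family, the 7 WASH copies, which derive from a subunit of the WASH actin-nucleating complex, were 4 in both lists, 2 naive-only and 1 in neither. The 6 DDX11L pseudogenes were 3 naive-only, 2 primed-only and 1 in neither. The 16 OR4F copies were 9 in both lists, 1 naive-only, 2 primed-only and 4 in neither, and the 12 SEPTIN14P pseudogenes were 6, 2, 2 and 2 in that order. All 3 FRG members, which take their name from facioscapulohumeral muscular dystrophy, and 5 TUBB8 relatives lay in the primed list, 3 of the latter in both.

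Of 57 olfactory receptor genes and pseudogenes in the ends, the receptors of odour neurons, 46 (80.7%) lay in primed and 42 (73.7%) in naive regions, close to 83.7% and 73.0% of the 356 elsewhere. The cluster of 1q held most of them. Of its coding members 25 lay in both lists, 8 in the primed list alone, 7 in the naive list alone and 3 in neither. Among those that differed most, OR2T34 and OR2AK2 were covered over 100% in the naive and 0% in the primed list, and OR2T5 and OR2T1 the reverse. How alike the receptors of this cluster are, and whether reads could be placed at a single one, was not tested. The 1q end as a whole had 43.0% naive and 53.6% primed.

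C2H2 zinc finger genes, many of which silence transposable elements through KRAB domains, numbered 92 in the ends. Of these 90 (97.8%) lay in primed and 75 (81.5%) in naive regions, against 92.3% and 84.4% of the 519 elsewhere. The 19q end held 51 of them, all inside the 1 primed region that covers that whole end. Of the 90 primed genes 51 thus rest on 1 call. ZNF324B, ZNF132, ZNF837 and ZNF135 on 19q were covered over 100% in the primed and 0% in the naive list. ZNF692 on 1q lay in neither, and ZNF670 on 1q in the naive list alone.

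On 14q the immunoglobulin heavy chain genes, which are rearranged in B cells and silent in other cells, lay almost wholly in the primed list. All 9 constant genes and 122 of 123 variable, diversity and joining segments were primed, and 6 of 9 and 98 of 123 were naive. The 21 such segments outside the ends were 100% primed and 81% naive, close to the 99.2% and 79.7% here, and 99% of the 14q window as a whole was primed. IGHM and IGHD, the first used, were covered over 100% in both lists, as were IGHG1, IGHG2 and IGHA1. IGHG3 had 74.4% and 100%. IGHA2, IGHE and IGHG4, the genes farthest from the tip, were covered over 100% in the primed list and 0% in the naive list. So were all J segments, which lie in 1 step of the grid, and, among the variable segments, IGHV7-81, IGHV4-80, IGHV3-71 and IGHV2-70. Whether reads could be placed at a single copy among the constant genes or among the variable segments was not tested.

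On 16p the alpha-globin cluster and its neighbours lay in the primed list with 1 exception, 11 of 12 (91.7%), and 8 of 12 (66.7%) lay in the naive list. Both shares were below the 96.7% and 72.0% of all coding genes in the ends. HBZ, the embryonic zeta-globin, and HBM were covered over 100% in the primed and 0% in the naive list. HBA2 and HBA1, the fetal and adult alpha-globins, were covered over 100% in both, and HBQ1 in neither. HBA1 and HBA2 are near-identical copies, so their calls are uncertain. Of the neighbours, MPG, a DNA glycosylase, had 0% naive and 100% primed, RHBDF1 10.6% and 100%, POLR3K 50.1% and 100%, AXIN1, of the beta-catenin destruction complex, 61.3% and 100%, NPRL3 18.8% and 43.7%, and SNRNP25 100% in both. LUC7L had 49.4% and 48.1%. Of the genes that differed, all but LUC7L were covered less in the naive list.

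On 11p and 20p lie further gene clusters, in which naive coverage was at no member above primed coverage. All their members lay in the primed list, near the 96.7% of coding genes in the ends that did so. The mucin genes MUC6 and MUC2 were covered over 0% in the naive and 100% in the primed list, MUC5AC over 4.74% and 53.7% and MUC5B over 56.7% and 74.4%. In the gene family named interferon-induced transmembrane (IFITM), IFITM5, IFITM1 and IFITM3 were covered over 100% in both lists. IFITM2 was covered over 0% naive and 100% primed and IFITM10 over 3.27% and 96.7%. IFITM genes are close copies of each other. On 20p all 6 beta-defensin genes, which encode antimicrobial peptides, were covered over 100% in the primed list. DEFB128, DEFB129 and DEFB132 were so in the naive list too, DEFB125 over 75.3%, and DEFB126 and DEFB127 over 0%. All 5 SIRP receptor genes of 20p lay in both lists, with naive coverage of 30.2% at SIRPG, 31.8% at SIRPB1, 44.4% at SIRPA, 55.1% at SIRPB2 and 67.1% at SIRPD. Primed coverage was 65.9% at SIRPB1 and 100% at the other 4.

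Developmental regulators were mixed. Of 7 forkhead genes 6 (85.7%) lay in primed and 5 (71.4%) in naive regions, near the 82.9% and 57.1% of the 35 forkhead genes elsewhere and the 96.7% and 72.0% of coding genes in the ends. FOXQ1 on 6p was covered over 100% in both lists, and FOXC1 over 97.8% and 100%. FOXF2 had 0% and 92.9%, FOXL3 0% and 100%, FOXK2 35.7% and 88.2%, and FOXD4 on 9p 100% naive and 0% primed. The DMRT genes of 9p, which are doublesex-related, were split. DMRT2 was covered over 100% in the naive list and 0% in the primed list, DMRT1 over 15.7% and 52.9% and DMRT3 over 11.5% and 22.2%. FOXD4 and DMRT2 thus stood against the direction of the ends as a whole, and 9p itself had 39.5% naive and 57.0% primed. FOXD4 is among the members of the duplicated families, so its call is uncertain.

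Genes of pluripotency and of the 8-cell programme were few in the ends, 4 of 4 primed and 3 of 4 naive, as were the 4 telomere maintenance genes. With 96.7% and 72.0% of coding genes in the ends called, these counts are near the ordinary ones. ZSCAN4, a telomere-lengthening factor of the 8-cell stage, was covered over 69.2% of its body in the naive list and 100% in the primed list, and DUXA, a homeobox gene of the same stage, over 44.4% and 100%. Both lie inside the 9298 kb primed region of 19q. UTF1, a chromatin factor of pluripotent cells, was covered over 100% in both. TERT, the catalytic subunit of telomerase, was covered over 0% in the naive and 83.7% in the primed list. Of the other telomere maintenance genes, the helicase gene RTEL1 had 26.0% and 57.7%, the recombination gene RAD52 73.4% and 49.6%, and SUN1, which tethers meiotic telomeres to the nuclear envelope, 7.48% and 49.5%.

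All 17 genes tied to terminal deletion syndromes or neurodevelopmental disease lay in the primed list and 15 in the naive list, with a median coverage of 90.3% and 28.1%. Over all coding genes of the ends 96.7% were primed and 72.0% naive, with a median coverage of 100% and 34.7%. The primed count was thus near the ordinary one, while the naive share of these genes, 88.2%, was higher. Both median coverages were lower. CRK and EEF1A2 were the 2 in the primed list alone, over 73.8% and 100% of their bodies. EHMT1 of the Kleefstra syndrome had 30.5% naive and 90.3% primed, NSD2 of the Wolf-Hirschhorn region 9.03% and 81.9%, and YWHAE of the Miller-Dieker region 28.1% and 100%. GNB1 had 19.9% and 90.5%, DEAF1 15.9% and 68.2%, LETM1 22.4% and 58.5%, KANK1 25.4% and 49.3%, MYT1L 24.0% and 33.2%, and TBP 84.5% and 100%. Coverage was near equal for SHANK3, a synaptic scaffold, with 50.3% and 55%, for DOCK8 with 45.4% and 44.9% and for ZMYND11 with 96.3% and 92.0%. Of 6 tubulin and actin genes all lay in the primed and 4 in the naive list (100% and 66.7%, near the same 96.7% and 72.0%). ACTG1, a cytoplasmic actin, and TUBB3, the neuronal tubulin, were covered over 0% naive and 100% primed. TUBGCP2, TUBGCP6 and TBCD had 66.3%, 55% and 36.1% in the naive list and 100%, 100% and 69.0% in the primed list.

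At the ends with the largest primed excess, the genes named here are those whose coverage differed most. On 21q, SPATC1L was covered over 0% naive and 100% primed, ITGB2, the integrin beta chain of leukocytes, over 9.44% and 100%, COL6A2 over 28.8% and 100% and ADARB1 over 32.9% and 100%. On 5p, EXOC3 and the amino acid transporter genes SLC6A19 and SLC6A18 were covered over 0% and 100%, and AHRR over 8.58% and 100%. On 2p, where naive coverage was the larger, SH3YL1 had 74.6% and 53.2% and SNTG2 36.0% and 25.8%, while PXDN had 8.85% and 22%. On 3q, where the shares were nearly equal, NRROS had 10.4% and 100% and NCBP2 35.5% and 100%, while FBXO45 had 49.0% and 6.57% and SMCO1 71.0% and 29.0%.

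The sequence of promoters was compared last, over RefSeq windows of 300 bases, from 250 before to 50 after a start site. Of 1282 coding genes in the ends, 972 had such a window, and with other gene types there were 2022 windows in the ends and 31703 elsewhere. Promoters of the ends had a median of 66.3% G and C and 22 CpG, and those elsewhere 58.0% and 13 CpG. Of the end promoters 750 lay in both lists, 941 in the primed list alone, 105 in the naive list alone and 226 in neither, or 37.1%, 46.5%, 5.19% and 11.2%. Elsewhere these shares were 28%, 31.5%, 13% and 27.5%. Their median G and C was 67.7% in both lists, 67.3% in the primed list alone, 58.3% in the naive list alone and 62.7% in neither, with medians of 26, 24, 9 and 14 CpG. The middle 50% of naive-only promoters ran from 47.7% to 65.3% and that of primed-only promoters from 60% to 75%, so the classes overlapped. FAM110C, printed above, is a naive-only promoter with 78% G and C, above the middle 50% of its class. Base composition moves with the class of call, and its part in the calls was not tested.

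The telomere hexamer TTAGGG, or CCCTAA on the other strand, stood in 127 of 2022 end promoters (6.28%) and in 9.30% of those elsewhere. A tandem pair of it stood in 0 end promoters and in 2 elsewhere. A hexamer in these windows is a match of letters only. Among the 151 mature miRNAs of the ends, 46 lay in both lists, 70 in the primed list alone, 10 in the naive list alone and 25 in neither. Counted as genes instead, 34.1% of the 126 miRNA genes of the ends lay in both lists and 44.4% in the primed list alone. A further 6.35% lay in the naive list alone and 15.1% in neither. Of miRNA genes outside the ends 23% lay in both lists, 35.6% in the primed list alone, 13.5% in the naive list alone and 27.9% in neither. The miR-200 family on 1p, which holds cells in an epithelial state, lay in the primed list alone. Of its 3 members there, miR-200b-3p and miR-429 share a seed, and miR-200a-3p has a related one, again with bases 2 to 8 in capitals.
hsa-miR-200b-3p, chr1:1167160-1167181: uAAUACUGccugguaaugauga
hsa-miR-429, chr1:1169055-1169076: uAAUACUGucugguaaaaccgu
hsa-miR-200a-3p, chr1:1167916-1167937: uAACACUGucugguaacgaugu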

How the data were processed

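NADs were profiled as crosslinked nucleolar and whole-cell DNA, 3 libraries of each per state, and the authors deposited 1 list of hg38 regions per state. The submitters' processing notes name BWA, SAMtools 1.10 and SICER, without roles. For calling settings, the merging of replicates and depth nothing is given in the sources used here, so a difference between the lists cannot be told apart from one of depth or settings. Except at chromosome tips, region limits are multiples of 10 kb.

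A chromosome's end was the largest end of any RefSeq gene (GRCh38.p14) or region. From the rest, 14 empty stretches of at least 500 kb (117.4 Mb) were taken out. Of 59792 genes in the table, 56080 on chromosomes 1 to 22 were used. Shares were computed with Python 3.11.15, numpy 2.4.6, pandas 2.3.3 and scipy 1.17.1, checked on simulated intervals, and drawn with matplotlib 3.10.9. No test was run. Members and the 16 gene lists were chosen with earlier results of these data known. Named were the outermost coding genes, all members of lists of up to 12, the most different members of longer lists, and coding genes of the most different ends and longest regions. Genes of chromosome 8 were counted and not named.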

Additional observations from a re-analysis of the deposited data

Results flagged for a closer look

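Chromosome X lies outside the 39 ends, and its outer 2 Mb were the one further place with calls at chromosome ends. At the short-arm end of X, which holds much of the pseudoautosomal region, the naive list called 31% and the primed list 69% of the sequence, in 42 and 33 regions. At the long-arm end the naive list called 62.0% and the primed list 90%, in 39 and 14 regions. Reads from the pseudoautosomal regions also match chromosome Y.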

How the results depend on the processing

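No paired analysis was possible because each state had 1 list, without values per replicate. A share was held to have moved when it left the 95% Wilson interval of the main share over 10 kb bins, which covers counting error only.

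The primed excess of the ends over the rest kept its sign under every alternative. It was 32.97 points with empty stretches kept, 34.96 with regions up to 50 kb apart merged, 17.6 with regions of at least 100 kb only, 29.1 for the outer 1 Mb, 27.4 for the outer 5 Mb, 32.5 without the outermost 200 kb and 23.4 with ends counted alike. With alternatives added later it was 34.0 on chromosomes 1 to 12, 13.9 on chromosomes 13 to 22 and 14.9 against windows of like gene number. The naive difference had no settled sign: 2.43 points with empty stretches kept and 3.71 after merging, but -0.564 with regions of at least 100 kb only, -0.308 without the outermost 200 kb, -1.65 with ends counted alike and -4.43 on chromosomes 13 to 22.

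The called share of the ends moved more. In the primed list it was 93.7% after merging, 69.5% without regions of 1 grid step, 40.5% with regions of at least 100 kb only, 72.4% for the outer 1 Mb, 69.2% for the outer 5 Mb, 75.3% without the outermost 200 kb and 72.9% without chromosome 19. In the naive list it was 81.6% after merging, 27.9% without regions of 1 grid step and 1.42% with regions of at least 100 kb only. Coding genes in naive regions fell to 463 at 50% or more of the body and to 10 with regions of at least 100 kb only, and in primed regions to 716 with the latter. Regions touching the other list fell to 268 in each list at 50% of both. Fewer regions or a stricter overlap made these counts smaller by construction. The depth of the libraries, which could change every share, was not given in the sources used here.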
